A study of Xenopus tropicalis with 16 samples.

Results

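The transcriptome of SUV4-20H-depleted ectoderm was compared between the tailbud (NF24) and the neurula (NF16) stage, using the knockdown libraries alone. These were all libraries labelled with Suv4-20H1/2 morpholinos at the 2 later stages, namely 3 at NF24 and 2 at NF16, or 5 of the 16 libraries of the series. Every library came from animal caps of Xenopus tropicalis, which are explants of prospective ectoderm cut from the blastula. The knockdown explants came from embryos injected with translation-blocking morpholinos, antisense oligomers against the mRNAs of both SUV4-20H enzymes. Control explants came from embryos injected with a standard control morpholino (CoMo), and 3 NF24 and 2 NF16 libraries of these are set beside the knockdown values. Gastrula (NF10) libraries, 3 per morpholino, served to define how genes behaved earlier. The stage labels refer to the Nieuwkoop and Faber series. The study noted that knockdown caps fell apart into single cells by the tailbud stage, so the NF24 knockdown samples were not intact explants. It also reported that these replicates were heterogeneous in a principal component analysis. The authors found differential genes hard to assess at this stage and turned to the neurula stage.

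SUV4-20H1 and SUV4-20H2 are histone methyltransferases that turn the monomethyl mark on lysine 20 of histone H4 into the di- and trimethyl marks. The trimethyl mark is known for its place in compact, silent chromatin. An animal cap left in culture becomes mucociliary epidermis, in which mucus-secreting, ion-regulating and multiciliated cells lie among each other. Early embryos rely on maternal mRNA, and as development goes on these transcripts are cleared while transcripts of the differentiating tissue accumulate. Between neurula and tailbud stages multiciliated cells move into the outer layer and grow their cilia.

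The files give gene identifiers without symbols, and 0 of the 14373 identifiers matched the symbol table used here. Cell type markers and the morpholino targets were therefore not looked up, and a translation-blocking morpholino need not change the level of its target mRNA. Genes are instead grouped below by their course in control explants. In these bulk samples, fewer cells of a type and less RNA per cell cannot be told apart. The series text calls the replicates biological without saying whether they came from separate clutches, so p-values measure the spread between these samples only.

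The NF24 knockdown libraries held 10692685, 16488846 and 11874933 fragments assigned to genes, and the NF16 knockdown libraries 21938081 and 14486551. NF24 knockdown replicates 1 and 3 stood apart in read categories. Their unmapped shares were 51.2% and 40.5%, against 31.3% in replicate 2, 25.6% to 27.1% in the NF16 knockdowns and at most 34.0% in the NF24 controls. Of the mapped fragments, 52.5% and 54.2% lay outside genes in these libraries, against 43.3% in replicate 2, 32.1% to 36.7% in the NF16 knockdowns and 39.3% to 47.7% in the NF24 controls. Their part in the results was not tested, but each leading count is also given without both. Such fits keep 1 NF24 knockdown library, which is assumed to vary like the other libraries of the fit, so they are no check between replicates. Across genes, log2 levels of the NF24 knockdown libraries correlated at r = 0.925 to 0.944 with each other. The NF16 pair correlated at 0.960, and the NF24 controls at 0.955 to 0.967 with each other.

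Knockdown explants changed broadly between neurula and tailbud. Of 11997 genes tested, 3422 (28.5%) passed an adjusted p of 0.05 by the quasi-likelihood test of edgeR, of which 1791 (14.9%) were higher and 1631 (13.6%) lower at NF24. The rises were larger than the falls. Called rises had a median log2 change of 2.44 and called falls one of -1.60. A log2 change of at least 3 in size was reached by 646 of the risers but by only 64 of the fallers. All but 4 of the 1791 risers were higher in each NF24 than in each NF16 library, and all but 3 of the 1631 fallers were lower. Over all tested genes, every NF24 library lay above every NF16 library for 30.9% and below for 28.5%. Without NF24 replicates 1 and 3 the count was 2352, of which 1939 were among the 3422. It was 323 without NF16 replicate 2, 1813 without NF16 replicate 1 and 1713 without NF24 replicate 1. When an NF16 library is left out, the lone remaining one is assumed to vary like the NF24 libraries. Without NF24 replicates 1 and 3, the lone NF24 library is likewise assumed to vary like the NF16 pair.

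The split between higher and lower genes depended on the scaling. With total counts in place of TMM factors there were 2214 higher and 1184 lower genes, and the median log2 change of all genes moved to 0.29, against 0.07. Of the called genes, 65.2% were then higher, against 52.3% with TMM factors.

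Risers and fallers differed in abundance. Among 988 genes with a mean level under 1 count per 1000000 assigned fragments (CPM, with scaling factors applied) over the 5 knockdown libraries, 4.35% were called higher and 1.32% lower. In the 1655 genes at 1 to 5 CPM these shares were 17.3% and 5.02%, and in the 2696 genes at 5 to 20 CPM they were 19.0% and 9.79%. With TMM factors, falls outnumbered rises among abundant transcripts. The bands were not recounted with total counts, under which 2214 genes were higher and 1184 lower. Of 4313 genes at 20 to 100 CPM, 15.9% rose and 17.9% fell, and of 2345 genes at 100 CPM or more, 11.3% rose and 21.3% fell.

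The same interval was then set beside that of control explants, with which it shares no library. In controls 3550 genes (29.6%) were called, 1740 higher (14.5%) and 1810 lower (15.1%) at NF24. The biological coefficient of variation was 0.399 in the knockdown and 0.311 in the control fit, so both counts were not made at the same spread. In one fit of all 6 groups, which shares one estimate of the spread, 3900 genes were called in knockdowns and 1872 in controls. The control count was 540 without NF16 control replicate 2 and 1023 without NF16 control replicate 1. It was 2084 without NF24 control replicate 2. With total counts the control split was 2649 higher and 1145 lower. Of the knockdown risers 800 also rose in controls, which is 44.7% of the knockdown and 46.0% of the control list. Of the fallers 844 were shared, or 51.7% of the knockdown and 46.6% of the control list. Across all tested genes the log2 changes of both intervals correlated at r = 0.641 and Spearman's rho = 0.626, as a description over genes that are not independent.

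Genes called in knockdowns moved less in controls. The 1791 knockdown risers had a median log2 change of 2.44 in knockdowns and 1.04 in controls, and 83.9% of them had the same sign in both. The 1631 fallers had medians of -1.60 in knockdowns and -0.93 in controls, with 89.1% of the same sign. Among all tested genes 72.6% had the same sign. These genes were chosen for their change in knockdowns, which by itself makes that change the larger one. For the 953 risers that were not called either way in controls, the medians were 2.37 in knockdowns and 0.45 in controls. For the 784 fallers not called in controls they were -1.38 and -0.41. Asking for no call in controls by itself keeps the control change of these genes small. Chosen the other way, the 1740 genes called higher in controls had medians of 1.42 in knockdowns and 1.49 in controls. The 1810 genes called lower in controls had medians of -1.14 in knockdowns and -1.35 in controls.

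Few genes were called in opposite directions. Only 38 knockdown risers (2.12%) were called lower in controls, and 21 of these had a called difference between the intervals in the interaction test described below. The medians of the 38 were 1.87 in knockdowns and -1.10 in controls. In the other direction, 3 knockdown fallers were called higher in controls.

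To ask whether late changes concerned genes that normally change earlier, the control libraries of NF16 and NF10 were used to define an earlier course. Between these stages 5671 genes (47.3%) were called in controls. Genes higher at NF16 than at NF10 in controls are called onset genes (3035, or 25.3% of those tested), and genes lower at NF16 are called clearance genes (2636, or 22%). Neither list uses a library of the knockdown interval. Of the onset genes, 956 rose between NF16 and NF24 in knockdowns and 130 fell. These are 31.5% and 4.28% of the list, against 14.9% and 13.6% of all tested genes. The median log2 change of the onset genes was 0.73 in knockdowns and -0.12 in controls, and in knockdowns 70.6% of them had a positive change, against 52.2% of all tested genes. Clearance genes moved the other way. Of these, 683 (25.9%) fell late in knockdowns and 97 (3.68%) rose, and their median log2 change was -0.57 in knockdowns and 0.07 in controls. The control values share NF16 libraries with the lists, so they are given side by side only.

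Both counts rested in large part on single libraries. Leaving out either NF16 knockdown, which leaves 1 library at that stage, lowered both counts and also the number of all genes called. Without NF24 knockdown replicate 1, 605 onset genes were called higher and 416 clearance genes lower. Of all 11997 tested genes, 983 were higher and 730 lower in that fit. Leaving out either NF16 control shortened both the onset and the clearance list, and lowered both counts. Without NF24 knockdown replicates 1 and 3 together, 854 onset genes rose and 443 clearance genes fell. With total counts in both steps, 947 of 2175 onset genes rose and 50 fell, and 800 of 4324 clearance genes fell and 295 rose. Of all 11997 tested genes, 2214 were then higher and 1184 lower.

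Genes were divided further by both control intervals into 9 classes. Of 438 genes that rose in controls in both intervals, 322 (73.5%) rose late in knockdowns, with a median log2 change of 2.37 in knockdowns and 1.63 in controls. Of 1972 genes that rose early and were then not called in controls, 599 (30.4%) rose late in knockdowns and 13 fell, and the medians were 0.81 in knockdowns and -0.04 in controls. This class held 599 of the 956 onset genes that rose late, and 1972 of all 3035 onset genes. Its share of late risers, 30.4%, was near the 31.5% of the whole onset list. Genes that rose and then fell in controls, 625 in number, were split, with 35 (5.6%) higher and 117 (18.7%) lower in knockdowns. Of all tested genes, 14.9% were higher and 13.6% lower. Their median was -0.54 in knockdowns and -1.25 in controls.

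Among the clearance classes, falls outnumbered rises in those that fell again or were not called late in controls. As for all 9 classes, the control medians follow from how the classes were made. Of 357 genes that fell in both control intervals, 252 (70.6%) fell late in knockdowns, with medians of -1.90 in knockdowns and -1.66 in controls. Of 1953 genes that fell early and were then not called in controls, 429 (22.0%) fell late in knockdowns and 30 rose, with medians of -0.56 in knockdowns and 0.08 in controls. The class of 326 genes that fell and then rose in controls moved upward instead, and 67 of these (20.6%) rose late in knockdowns and 2 fell.

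Genes that controls changed only late were called in knockdowns in part. The 976 genes that first rose in the late interval of controls had a median of 1.42 in knockdowns and 1.55 in controls, and 411 (42.1%) were called higher in knockdowns. The 828 genes that first fell there had medians of -1.34 in knockdowns and -1.33 in controls, and 475 (57.4%) were called lower in knockdowns. Of the 4522 genes called in neither control interval, 324 (7.16%) rose and 342 (7.56%) fell in knockdowns. Both shares were below those of all tested genes, 14.9% and 13.6%.

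**Figure D1:**
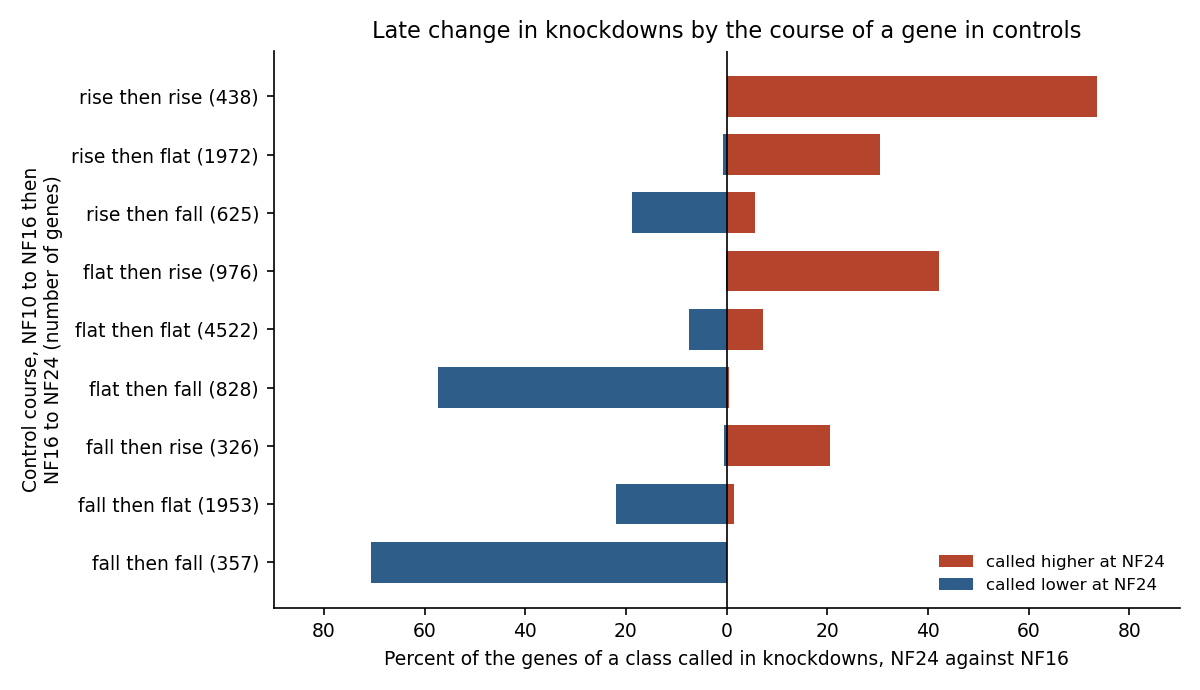
Share of genes called higher (right) or lower (left) at NF24 than at NF16 in knockdown explants, in percent, for 9 classes of genes defined by their course in controls from NF10 to NF16 and from NF16 to NF24; the number of genes is in parentheses. Classes that rose in both control intervals (73.5% higher) or fell in both (70.6% lower) moved most often, and among genes that changed early and then stayed flat in controls 30.4% rose and 22.0% fell.

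The position of each library was then read from its distance to the mean NF24 control, as the median over a list of the difference in log2 CPM. For onset genes the NF24 knockdowns lay at -0.13, -0.07 and -0.17, and the NF16 knockdowns at -0.77 and -0.99. The groups did not overlap, with means of -0.12 ± 0.051 (SD, n = 3) at NF24 and -0.88 ± 0.15 (SD, n = 2) at NF16. Control libraries lay at 0.03, -0.09 and 0.07 at NF24 and at 0.20 and 0.12 at NF16. Onset genes were lower in both NF16 knockdowns than in both NF16 controls. They were chosen for high values in these NF16 controls, which by itself sets other NF16 libraries lower. The NF24 knockdown values reached into the range of the NF24 controls in 1 of 3 libraries. At NF10 the mean was -2.88 in knockdowns and -2.93 in controls. The share of onset genes within 1 log2 unit of the NF24 controls was 88.5%, 92.5% and 72.6% in the NF24 knockdowns and 44.9% and 41.5% in the NF16 knockdowns. Over all tested genes it was 84.0%, 90.1% and 72.2% in the NF24 knockdowns and 52.0% and 48.8% in the NF16 knockdowns. The higher share at NF24 was thus not particular to onset genes. In the NF16 controls, 64.7% and 64.8% of the onset genes lay within this range.

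For clearance genes the NF24 knockdowns lay at 0.10, 0.09 and -0.01 and the NF16 knockdowns at 0.52 and 0.72. Both NF16 controls were near 0, at -0.03 and -0.02. Clearance genes were chosen for low values in these NF16 controls, which by itself sets other NF16 libraries higher. The 3 NF24 knockdown libraries moved by like amounts from the NF16 knockdown mean, with median changes of 0.76, 0.77 and 0.75 over the onset genes and of -0.48, -0.53 and -0.66 over the clearance genes. With 3 against 2 libraries, a two-sided exact rank test of these positions cannot go below p = 0.2, so none is given.

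The NF24 knockdown libraries were less alike in every class that controls changed late. The SD of their positions was 0.18 to 0.28 in these classes, against 0.051 over onset and 0.058 over clearance genes. In the NF24 controls the SD was 0.029 to 0.157 in these classes, against 0.082 over onset and 0.082 over clearance genes. For genes that rose in both control intervals, the NF24 knockdowns lay at -0.03, -0.31 and -0.60 and the NF16 knockdowns at -2.31 and -3.25, while the NF16 controls lay at -1.50 and -1.53. Replicate 1 was thus level with the NF24 controls and replicate 3 was the farthest below them. For genes that fell in both control intervals, the NF24 knockdowns lay at 0.66, 0.38 and 0.71, the NF16 knockdowns at 2.51 and 2.66, and the NF16 controls at 1.56 and 1.76. In this class all 3 NF24 knockdown libraries were above the mean NF24 control. Both classes were chosen partly by the values of these NF24 controls. That choice by itself sets other libraries below the control mean in the rising class and above it in the falling class.

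**Figure D2:**
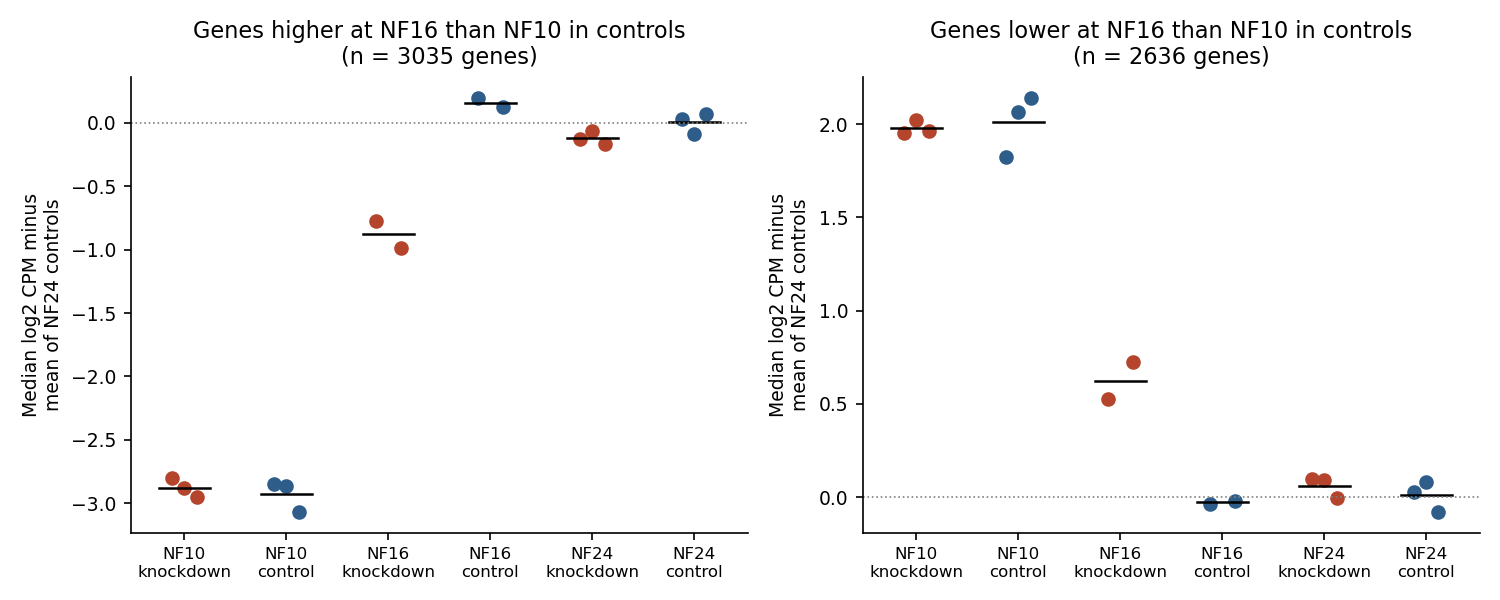
Median difference in log2 CPM from the mean NF24 control over 3035 onset genes (left) and 2636 clearance genes (right), per library; points are libraries, red for knockdown and blue for control, and black lines are group means. The NF16 knockdowns stand below the NF16 controls for onset genes (-0.77 and -0.99) and above them for clearance genes (0.52 and 0.72), and the NF24 knockdowns lie between -0.17 and 0.10 in both. Both lists were chosen with these NF16 controls, which by itself shifts other NF16 libraries in these directions.

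Whether the late change itself differed between knockdown and control explants was tested as an interaction term in one fit of all 6 groups. At adjusted p under 0.05, 222 genes (1.85%) differed, 151 with a higher (1.26%) and 71 with a lower (0.592%) change in knockdowns. With total counts in place of TMM factors the split was 110 higher and 114 lower, of 224. Other fits called more genes. With the replicate number within each stage as a block there were 1779 (1121 higher and 658 lower), with DESeq2 958 and with the 4 later groups alone 530. The count also moved with single libraries. It was 10 without NF16 control replicate 1, 56 without NF16 control replicate 2, 24 without NF16 knockdown replicate 1 and 19 without NF16 knockdown replicate 2. Leaving out an NF24 library gave 66 without control replicate 1, 24 without control replicate 2, 102 without knockdown replicate 1 and 102 without knockdown replicate 2. Without NF24 knockdown replicate 3 it was 344, and without knockdown replicates 1 and 3 it was 236, of which 133 were among the 222.

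A gene was counted as catching up when its change in knockdowns and the interaction were both called in the same direction, its NF16 level in knockdowns lay below the control for a rising and above it for a falling gene, and the gap to control was smaller at NF24 than at NF16. By this rule 133 genes rose to catch up and 55 fell to catch up. All quantities in the rule are therefore given as a description. The 133 risers had a median log2 change of 3.09 in knockdowns and -0.20 in controls. Their median gap between knockdown and control was -3.61 at NF16 and -0.31 at NF24. At NF24, 127 of the 133 were within 1 log2 unit of control and 90 were within 0.5, and 108 were still below it. In both directions the rule asks for a smaller gap at NF24, which by itself favours genes near control there. In controls 104 of the 133 were not called between NF16 and NF24, 21 fell and 8 rose. Of all tested genes, 15.1% fell and 14.5% rose in that control interval.

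The 55 catch-up fallers had a median change of -1.77 in knockdowns and 0.24 in controls. Their median gap was 1.84 at NF16 and -0.08 at NF24, and at NF24 54 of them were within 1 log2 unit of control and 48 within 0.5. In controls 51 of the 55 were not called in this interval, in which 29.6% of all tested genes were called. The catch-up count of 188 was 705 with DESeq2 (533 rising and 172 falling). Over fits that left out 1 library it ranged from 10 without NF16 control replicate 1 to 303 without NF24 knockdown replicate 3. It was 53 without NF16 control replicate 2, 22 and 16 without NF16 knockdown replicates 1 and 2, 62 and 22 without NF24 control replicates 1 and 2, and 77 and 81 without NF24 knockdown replicates 1 and 2. Without NF24 knockdown replicates 1 and 3 it was 195, and with total counts it was 174, of which 101 rose and 73 fell.

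**Figure D3:**
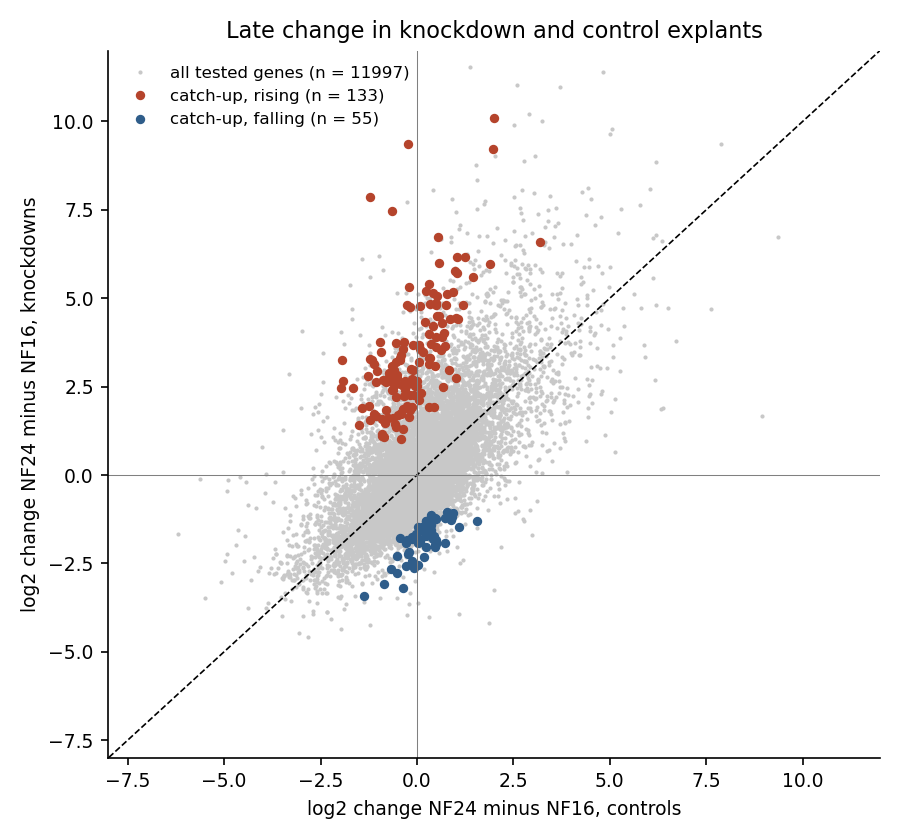
Log2 change from NF16 to NF24 of 11997 genes in knockdowns (vertical axis) against controls (horizontal axis); the dashed line marks equal change. The 133 rising catch-up genes (red) lie above the line around a median of 3.09 in knockdowns and -0.20 in controls. The 55 falling ones (blue) lie below it around -1.77 and 0.24. The catch-up rule by itself sets these sides.

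In levels, the median over the 133 rising catch-up genes was 47.0, 59.5 and 29.4 CPM in the NF24 knockdowns and 4.48 and 5.39 CPM in the NF16 knockdowns. Controls held 62.8, 46.5 and 55.8 CPM at NF24 and 72.7 and 49.2 CPM at NF16. Both NF16 knockdown medians were below every other library of the later stages, an order that the catch-up rule selects for. They were above those of NF10, which were at most 0.825 CPM in knockdowns and 0.783 CPM in controls. NF24 knockdown replicate 3 had the lowest median of the NF24 libraries, and replicates 1 and 2 lay among the NF24 controls. For the 55 falling catch-up genes the medians were 23.9, 21.8 and 27.2 CPM in the NF24 knockdowns and 68.7 and 92.9 CPM in the NF16 knockdowns. Controls held 25.8, 27.7 and 22.0 CPM at NF24 and 22.1 and 22.5 CPM at NF16. At NF10 these medians were 119.2 to 138.2 CPM in knockdowns and 115.4 to 129.2 CPM in controls. The NF16 knockdown values thus lay between the NF10 and the NF16 control values. The catch-up rule by itself sets them above the NF16 controls.

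**Figure D4:**
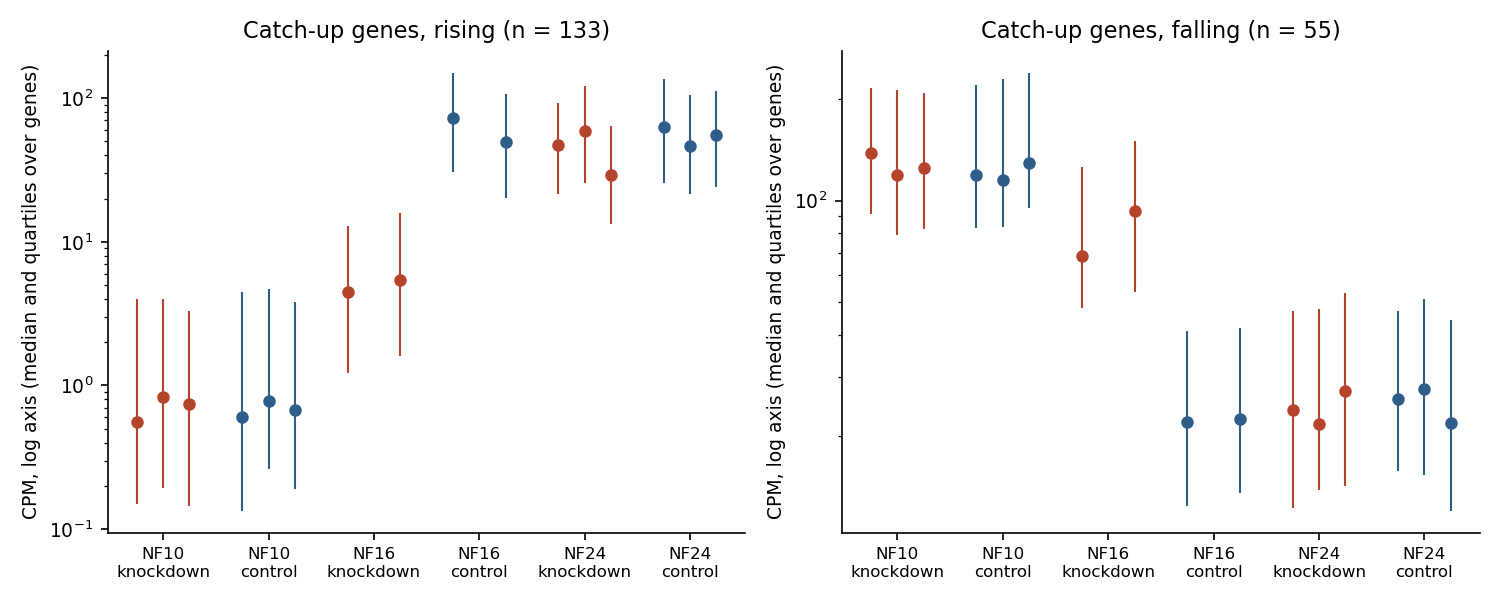
Levels of the rising (left, 133 genes) and falling (right, 55 genes) catch-up genes per library in CPM on a log axis; points are medians over genes, bars the quartiles, red knockdown and blue control. Among the libraries of NF16 and NF24, the NF16 knockdowns have the lowest medians at left (4.48 and 5.39 CPM) and the highest at right (68.7 and 92.9 CPM). The catch-up rule selects for this order.

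The other genes with a called interaction were few. For 16 genes with a higher and 15 with a lower change in knockdowns, the knockdown interval itself was not called. The 16 had medians of 0.78 in knockdowns and -1.72 in controls, and 15 of them were called lower in controls. The 15 had medians of -0.62 in knockdowns and 1.24 in controls, and 14 were called higher in controls. The remaining 3 genes had a called change in knockdowns and lay past control or away from it at NF24. They were singled out after their values were seen. A direct comparison of NF24 knockdowns with NF24 controls called 0 of 11997 genes (lowest adjusted p = 0.264 in edgeR's quasi-likelihood test). Their position against control is therefore given as values only. The first held 94.9, 108.2 and 198.0 CPM in the NF24 and 5.55 and 11.9 CPM in the NF16 knockdowns, against 31.7, 20.0 and 17.7 CPM in the NF24 and 17.4 and 25.5 CPM in the NF16 controls. Every NF24 knockdown was above every control of both stages. The second held 1.68, 105.5 and 38.8 CPM in the NF24 knockdowns, so that replicate 1 lay far below the others, against 1.23 and 1.04 CPM in the NF16 knockdowns. NF24 controls held 1.07, 1.06 and 1.41 CPM of it and NF16 controls 6.02 and 2.15 CPM. NF24 knockdown replicate 1 was thus below both NF16 controls. The third fell, with 3.82, 6.33 and 5.11 CPM in the NF24 and 12.2 and 20.7 CPM in the NF16 knockdowns. Its controls held 18.9, 11.9 and 17.2 CPM at NF24 and 7.68 and 9.14 CPM at NF16.

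Some transcripts were at or near 0 counts in the NF16 knockdowns and present at NF24. Among all 14373 genes, 94 had at most 3 counts in each NF16 knockdown library and at least 1 CPM in each NF24 knockdown library. Only 65 of these passed the filter on low counts, which they could do partly through the NF24 libraries, so no test over them is given. Their median level was 4.04 CPM in NF24 knockdowns, 3.32 CPM in NF24 controls and 0.763 CPM in NF16 controls. In every NF24 control 65 of the 94 were also at 1 CPM or more, and in both NF16 controls 26 were. By the same criteria 27 genes were found in controls, 3 of them among the 94. The criteria do not use NF10 libraries. The reverse pattern, at least 1 CPM in each NF16 and at most 3 counts in each NF24 library, was met by 4 genes in knockdowns and 1 in controls. The NF16 control libraries differ in depth from the NF16 knockdowns, which moves a limit set in counts.

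By a fixed rule, 4 genes were named, which are known here only by their identifiers in the gene models. The largest late rise at a mean of at least 5 CPM was that of Xetrov90021551m.g. It held 2.33, 557.9 and 103.5 CPM in the NF24 knockdowns and 0.0533 and 0.0804 CPM in the NF16 knockdowns, where it had 1 count per library. The NF24 libraries spanned a wide range, and all were above the NF16 libraries. The log2 change was 11.53 (SE 2.63, adjusted p = 0.0173 in edgeR's quasi-likelihood test), and it was not called without NF16 knockdown replicate 1 or replicate 2 (highest adjusted p = 0.0981 in edgeR). NF24 controls held 0.355, 2.24 and 0.325 CPM and NF16 controls 0.262 and 0.462 CPM. The difference between the intervals, 10.31 on the log2 scale, was not called (adjusted p = 0.0606 in edgeR).

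The named rising catch-up gene was Xetrov90007615m.g. It held 11.8, 13.8 and 4.56 CPM in the NF24 knockdowns and had 0 counts in both NF16 knockdowns. Set against a floor of 3 counts per library, its mean NF24 level was at least 50.1-fold higher (edgeR adjusted p = 0.00638). NF24 controls held 14.97, 16.7 and 22.6 CPM and NF16 controls 4.62 and 4.59 CPM, so each NF24 knockdown was below each NF24 control. That difference was not called in a direct comparison (log2 change -0.87, SE 0.42, adjusted p = 0.522 in edgeR). The transcript also rose in controls, by 1.99 on the log2 scale (SE 0.32, adjusted p = 0.00615 in edgeR). The fitted interaction was 8.67 (SE 1.92, adjusted p = 0.0399 in edgeR), a value that depends on the prior count. It was lost under 11 of 25 alternatives, with adjusted p between 0.000454 and 0.151. With the unstranded column, which adds 3 and 4 counts from the opposite strand in the NF16 knockdowns, the interaction was 3.49.

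The largest late fall at that level was that of Xetrov90007966m.g. It held 25.3, 43.9 and 77.3 CPM in the NF24 knockdowns and 1000.6 and 1115.0 CPM in the NF16 knockdowns, a log2 change of -4.47 (SE 0.49, adjusted p = 0.00606 in edgeR). In controls it held 6.95, 22.5 and 29.4 CPM at NF24 and 112.7 and 218.6 CPM at NF16, a change of -3.06 (SE 0.56, adjusted p = 0.00876 in edgeR). The fall was called in both kinds of explant, and the difference between them was not called (-1.36, adjusted p = 0.672 in edgeR). Both NF16 knockdowns were above all other libraries of the series, of which the highest was an NF10 control at 456.4 CPM.

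The named falling catch-up gene was Xetrov90021135m.g. It held 4.28, 4.24 and 4.11 CPM in the NF24 knockdowns and 10.9 and 9.48 CPM in the NF16 knockdowns. NF24 controls held 3.298, 7.88 and 4.49 CPM and NF16 controls 1.48 and 2.05 CPM. The gene was thus higher in both NF16 knockdowns than in both NF16 controls, and the NF24 knockdowns lay inside the range of the NF24 controls. Its late change was -1.30 (SE 0.41, adjusted p = 0.0489 in edgeR) in knockdowns and 1.57 (SE 0.53, adjusted p = 0.0591 in edgeR) in controls. The call in knockdowns was lost under 10 of 17 alternatives, with adjusted p from 0.0101 to 0.211. The interaction of -2.82 (SE 0.57, adjusted p = 0.0255 in edgeR) was lost under 8 of 25, with adjusted p from 6.7e-05 to 0.172.

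**Figure D5:**
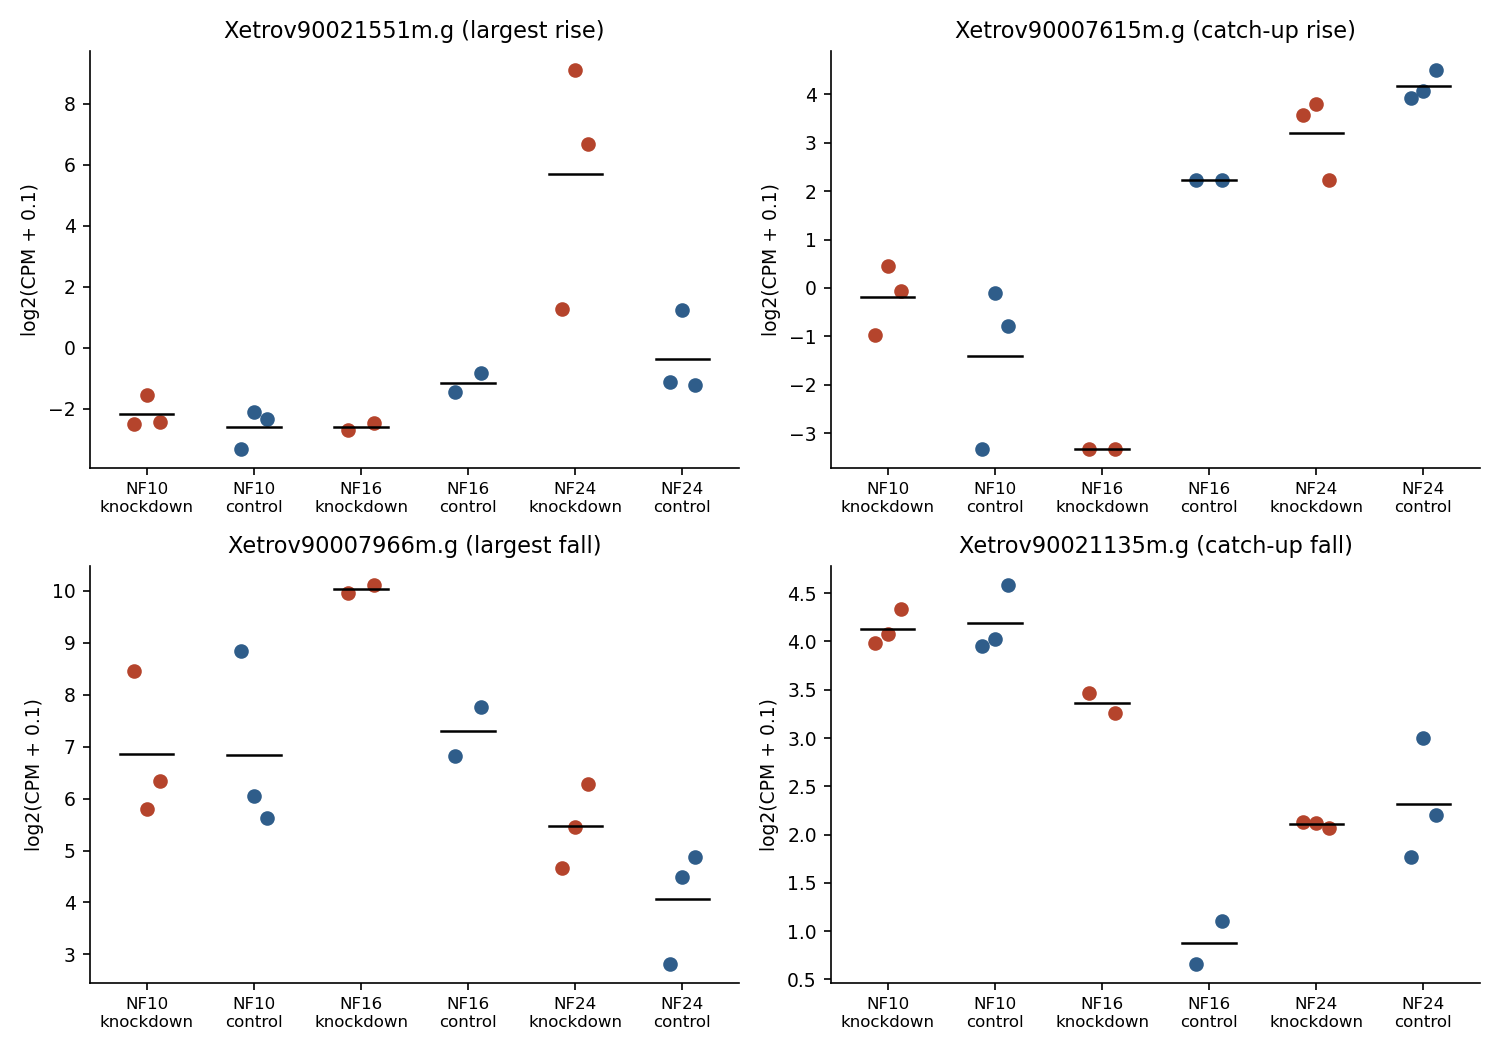
Levels of the 4 named genes per library as log2(CPM + 0.1); points are libraries, red knockdown and blue control, and black lines are group means of the plotted values. Xetrov90021551m.g rises in the NF24 knockdowns with a wide spread (2.33 to 557.9 CPM), while Xetrov90007615m.g has 0 counts in both NF16 knockdowns and Xetrov90021135m.g is higher there (10.9 and 9.48 CPM) than in the NF16 controls.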

How the data were processed

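Per the labels, ribosomal RNA was removed from total RNA of animal caps before directional libraries were prepared. The authors mapped reads to the X. tropicalis v9.1 genome with STAR (version 2.4.2a in the submitters' processing notes) and counted fragments over Xenbase gene models in the same run. The deposited values are raw counts per gene, for 14373 genes, unstranded and for each strand. Of 4 tally lines, which were left out of library sizes, the multimapping one is 0 throughout, so genes with near-identical copies may be undercounted. Deposited unmapped and outside-gene tallies are given as shares in the report.

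The strand column with the larger total was used. Assigned totals were at least 10692685 fragments, and the number of libraries limits the precision more than counting does. Tests covered genes detected by 1 read or more in 12 of 16 libraries (75%) and used edgeR 4.0.16 (R 4.3.3), TMM factors, the quasi-likelihood test and Benjamini-Hochberg adjustment over all 11997 genes, at a threshold of 0.05. Pairwise comparisons were fitted on their own libraries, and the interaction on all 6 groups. Standard errors are the log2 change divided by the square root of F. Log2 CPM used a prior count of 2. No library repeated another (chi-square over degrees of freedom at least 55.5 within groups). The code was tested on simulated data. Same-numbered knockdown and control libraries deviated together at NF10 (r = 0.802, 0.820 and 0.701) and less so at NF24 (0.389, 0.217 and 0.520). At NF16 they did not (-0.142). Libraries of unlike number correlated at -0.270 or below at NF10 and at -0.485 to 0.166 at NF24. Deviations cancel out within a group, so these values are not separate evidence. By the same-numbered values alone, the number may pair the samples at NF10 and NF24. The labels do not say so, and pairing was not tested.

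Named genes were, in each direction, the gene with the largest change in knockdowns and the catch-up gene with the largest interaction, among called genes with at least 5 CPM on average and no overlap between stages. Only 4 identifiers are printed because none was paired with a symbol, and sequences are not given for the same reason. The comparison, the lists and the rules were chosen with earlier results of these data known.

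Alternatives were DESeq2 1.42.0, RLE factors, total counts, no filter, filterByExpr, a filter on the 5 knockdown libraries, the unstranded column, a minimum log2 change of 1, other sets of groups in the fit, thinning to the smallest total, a replicate block and leaving out each library. Leaving out NF24 knockdown replicates 1 and 3 together was added after the data were seen, and it leaves 1 NF24 knockdown library.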

Additional observations from a re-analysis of the deposited data

Results flagged for a closer look

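Between knockdown and control explants, the change from NF16 to NF24 differed in 222 genes by the interaction test of edgeR. Of the named genes, the knockdown change exceeded the control change by 8.67 on the log2 scale in Xetrov90007615m.g, and the interaction was -2.82 in Xetrov90021135m.g.

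Some libraries carried more signal outside the gene counts than any control library did. At NF24, the unmapped share of fragments was 51.2% in knockdown replicate 1 and 40.5% in knockdown replicate 3, against at most 34.0% in a control. Fragments outside genes made up 52.5% of the mapped fragments of replicate 1 and 54.2% of those of replicate 3, against at most 47.7% in a control. In replicate 1, 4.58% of fragments were counted on the opposite strand, against at most 4.05% in a control. What these fragments are was not tested.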

How the results depend on the processing

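Of 137 alternatives for counts and positions, 96 kept the value within the limits set and 41 moved it. None of 117 alternatives for the named genes reversed a direction, 86 kept the call and 31 lost it. DESeq2 called 958 genes in the interaction test, which held all 222, and 705 catch-up genes. A fit of the 4 later groups gave 530 interaction genes, and a fit of all 6 groups gave 1872 control genes beside 3900 knockdown genes. Total counts moved the difference in position between NF24 and NF16 knockdowns to 0.94 for onset genes, against 0.76, and to -0.38 for clearance genes, against -0.56. Without NF24 knockdown replicates 1 and 3, 443 clearance genes fell. Leaving out 1 library at a time gave 323 to 3551 genes in knockdowns, 540 to 3756 in controls, 10 to 344 in the interaction, 150 to 1011 rising onset genes, 80 to 712 falling clearance genes and 10 to 303 catch-up genes. The positions ranged from 0.65 to 0.86 for onset and from -0.66 to -0.46 for clearance genes. Why these values moved was not tested, beyond the loss of a sample.

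Across stages, samples of NF24 and NF16 share only a replicate number. Deviations from the group means correlated at 0.151 and 0.197 between same-numbered knockdown libraries and at 0.0675 and -0.0779 between same-numbered controls. With the number as a replicate block, 5285 genes were called in knockdowns (2736 higher), including 3382 of the 3422, and 4220 in controls. With the number within each stage as a block, the interaction had 1779 genes, including all 222. The named genes kept their calls under the block.

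Depth limits what can be said of low genes, and 2 NF16 libraries per morpholino limit every comparison. Genes without counts at NF10 could not pass the filter. Without a filter, 3581 genes were called in knockdowns.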
